A study of Mus musculus with 14 samples.

Results

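Deleting residues 480 to 520 of the transcription factor EBF1 was compared with the wild-type protein by where the chromatin remodeller Brg1 was called on the genome of fetal liver cells. The members are all Brg1 ChIP-seq peaks of both libraries on chromosomes 1 to 19, X and Y, which were 29354 peaks with wild-type EBF1 (wt) and 27550 with the deletion (dPLD), or 56904 of the 196179 peaks in the 9 peak lists of the series. A wt peak sharing no base with any dPLD peak is called lost, a dPLD peak sharing no base with any wt peak is called gained, and the others are called kept. There were 4814 lost and 3622 gained peaks.

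The series holds 14 mouse samples of strain C57BL/6, of which 9 gave ChIP-seq peak lists. Fetal liver cells were EBF1 -/- c-kit+ lymphocyte progenitors from embryos of day 16 to 18, and all 5 Brg1 groups share that genotype. They were transduced with the retroviral vector pMys with IRES GFP, either empty or carrying EBF1 wt, dPLD (named d480-520 in the construct), dC (C-terminal domain deleted) or F-GATA3 (that domain replaced by the TA1 domain of GATA3), and then cultured for 14 to 20 days on OP9 stroma with IL7, SCF and Flt3. EBF1 binding, and Brg1 again, were measured with wt and dC in A-MuLV pro-B cells, a line of EBF1 fl/fl origin transformed by Abelson virus in which EBF1 had been replaced by the vector's version. By the labels, cells given wt or F-GATA3 were pro-B cells, those given dPLD or dC were held back in part short of that stage, and those with the empty vector were blocked short of it. The EBF1 version and the stage of the cells therefore cannot be told apart in the comparison of dPLD with wt. Each group had 1 library, so there is no test between conditions and no measure of the scatter among replicates. The number of animals or cultures behind a library is not given in the labels.

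EBF1 is the factor that, with E proteins and Pax5, sets up the B-lineage programme, and progenitors without it stop before the pro-B stage. It binds a near-palindromic site whose core reads CCCNNGGG. Brg1 is the product of Smarca4 and the motor of BAF complexes, which slide and evict nucleosomes and so open chromatin at enhancers and promoters. Prion-like domains, which the label dPLD refers to, are stretches of low sequence complexity that can hold proteins together by weak contacts. The title of the series asks about the C-terminal domain of EBF1 and Brg1 recruitment, and the deletion takes out 1 stretch of that protein rather than the whole domain.

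The promoters of 5 genes serve as examples of kept, lost and gained peaks. They were chosen after their values had been seen and do not stand for their classes. EBF1 with wt was called in A-MuLV cells at only 15 of the 526 promoters with a lost peak. Sequences are from RefSeq (GRCm38.p6), 5′ to 3′ on the gene's strand, from 250 bases before to 50 after the start. Igll1 (chr16:16863936-16864235, minus strand), which encodes a chain of the surrogate light chain, and Cd22 (chr7:30878979-30879278, minus strand), an inhibitory receptor of B cells, had kept peaks. Klk4 (chr7:43880910-43881209, plus strand), a secreted protease, and Fetub (chr16:22919972-22920271, plus strand), a plasma protease inhibitor, had lost peaks. Capitals mark CCCNNGGG in these 4 sequences.
Igll1: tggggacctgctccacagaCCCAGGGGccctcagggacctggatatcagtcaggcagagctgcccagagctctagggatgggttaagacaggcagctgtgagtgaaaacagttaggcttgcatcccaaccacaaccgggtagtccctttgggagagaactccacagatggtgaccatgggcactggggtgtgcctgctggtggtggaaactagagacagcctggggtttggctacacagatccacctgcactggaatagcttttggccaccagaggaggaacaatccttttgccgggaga
Cd22: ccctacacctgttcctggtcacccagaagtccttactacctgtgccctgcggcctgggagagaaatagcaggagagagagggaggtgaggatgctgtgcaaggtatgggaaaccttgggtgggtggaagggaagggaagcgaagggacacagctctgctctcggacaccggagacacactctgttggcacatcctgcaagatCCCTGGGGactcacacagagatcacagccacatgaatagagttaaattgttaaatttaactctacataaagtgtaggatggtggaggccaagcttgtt
Klk4: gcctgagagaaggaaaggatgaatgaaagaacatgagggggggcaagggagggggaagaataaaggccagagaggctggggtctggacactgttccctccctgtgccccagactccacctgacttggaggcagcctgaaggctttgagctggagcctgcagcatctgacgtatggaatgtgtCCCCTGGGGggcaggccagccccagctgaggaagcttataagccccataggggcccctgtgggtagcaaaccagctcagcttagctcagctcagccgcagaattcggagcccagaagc
Fetub: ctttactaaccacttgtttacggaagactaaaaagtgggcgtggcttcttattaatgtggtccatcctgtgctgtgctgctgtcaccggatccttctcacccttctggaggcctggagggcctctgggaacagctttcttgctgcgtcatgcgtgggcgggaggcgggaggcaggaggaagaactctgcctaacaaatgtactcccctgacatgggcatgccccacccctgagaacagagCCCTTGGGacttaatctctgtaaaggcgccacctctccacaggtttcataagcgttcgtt
Lck (chr4:129558323-129558622, minus strand), a kinase of T-cell receptor signalling, had a gained peak. Capitals mark the E-box word CAGNTG, the kind of site that E proteins bind.
Lck: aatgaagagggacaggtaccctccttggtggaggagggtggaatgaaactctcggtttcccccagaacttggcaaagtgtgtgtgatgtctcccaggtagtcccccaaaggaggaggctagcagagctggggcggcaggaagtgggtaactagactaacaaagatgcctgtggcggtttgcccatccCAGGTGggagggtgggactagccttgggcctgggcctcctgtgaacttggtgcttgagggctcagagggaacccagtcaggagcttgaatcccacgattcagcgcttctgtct
The Brg1 peak over the Igll1 promoter had a fold enrichment of 27.6 with wt and 21.0 with dPLD, and that over Cd22 had 20.7 and 14.5. Fold enrichment is the authors' value for each peak, the pileup at its summit over the local background, and serves only to rank and describe the peaks of a list. EBF1 was called at both promoters with both forms in A-MuLV cells. Klk4 (wt fold 5.59) and Fetub (4.67) had EBF1 called with wt and not with dC, and no Brg1 peak in the other 4 fetal liver lists. Lck (dPLD fold 7.23) had Brg1 with dC and the empty vector, none with wt or F-GATA3, and no EBF1 peak.

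Most Brg1 peaks were in both lists, and those lost or gained were mostly weak ones. Lost peaks were 16.4% of the wt list (95% exact Clopper-Pearson interval 16.0 to 16.8%), and gained peaks were 13.1% of the dPLD list (12.8 to 13.6%). With both lists cut to their 27550 strongest peaks the order turned, with 14.0% lost and 15.8% gained, and with peaks matched by summits within 200 bp the shares were 27.9% and 23.2%. These shares are the background for every count of lost and gained peaks below, and the intervals cover counting error only. Sequencing depth is unknown, so the absence of a peak does not show that Brg1 was absent. The 24540 kept wt peaks overlapped 23928 dPLD peaks. The dPLD peaks were wider, with a median of 1325 bp against 1103 bp, and 789 of them spanned 2 or more wt peaks against 214 wt peaks that spanned 2 or more dPLD peaks. Lost peaks had a median width of 589 bp and a median wt fold of 5.64, against 1229 bp and 7.72 for kept wt peaks. Gained peaks had a median width of 729 bp and a median dPLD fold of 5.37, against 1439 bp and 7.26 for kept dPLD peaks.

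Of the wt peaks with a fold of 5 to 6, 34.5% were lost (33.3 to 35.8%), and of those with a fold of 8 to 10, 5.33% (4.73 to 5.97%). Of the 3765 with a fold of 12 or more, 26 were lost (0.691%, 0.452 to 1.01%). Gained peaks were scarcer among strong dPLD peaks, with 2 of 2704 at a fold of 12 or more (0.0740%, 0.00896 to 0.267%). A second peak often lay close by: 43.8% of lost peaks had a dPLD peak within 10 kb (42.4 to 45.2%) and 58.2% of gained peaks had a wt peak within that distance (56.6 to 59.8%). Within 1 kb these shares were 7.67% and 10.7%.

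**Figure D1:**
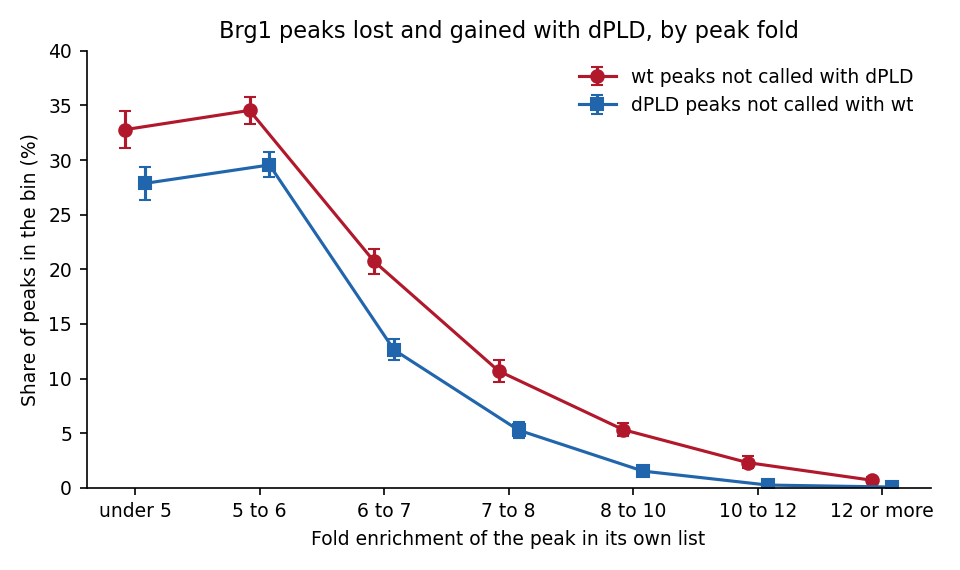
Share of wt peaks lost with dPLD (circles) and of dPLD peaks gained over wt (squares), in percent, by the peak's fold enrichment in its own list; bars are exact 95% intervals for counting error. Lost shares go from 34.5% at folds of 5 to 6 to 0.691% at 12 or more, and gained shares from 29.5% to 0.0740%.

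Lost and gained peaks lay away from gene starts more often than kept ones. The summit lay within 1 kb of a RefSeq start at 10.9% of lost peaks (10.0 to 11.8%) and 32.4% of kept wt peaks (31.8 to 33.0%). For gained peaks the share was 11.6% (10.6 to 12.7%) and for kept dPLD peaks 32.6% (32.0 to 33.2%). Starts on chromosome 18 were not used here, and peaks there are left out of these shares. In the lowest quartile of wt folds the shares were 12.4% of lost and 32.9% of kept peaks, so the gap was also there between weak peaks. Summits inside protein-coding genes were 53.4% of lost and 57.9% of kept wt peaks. The word CCCNNGGG, which reads the same on both strands, was in 19.01% of the 526 promoters whose peak was lost (15.7 to 22.6%) and 18.7% of the 10779 with a kept peak. It was in 15.2% of the 448 promoters with a gained peak (12.0 to 18.8%) and in 13.7% of all 32851 promoters of that length. CAGNTG, searched on both strands, was in 50.0% of lost, 41.7% of kept, 55.6% of gained and 51.4% of all promoters. GGAAGT, the core of ETS sites, was in 24.0% of lost (20.4 to 27.8%), 30.5% of kept, 30.8% of gained and 23.8% of all promoters. For TGTGGT, the core of RUNX sites, the shares were 13.9%, 12.3%, 14.1% and 16.8%.

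Brg1 peaks at places where EBF1 had been called with wt and not with dC were lost at a higher share than other wt peaks. Of the 478 wt Brg1 peaks that overlapped such an EBF1 peak in A-MuLV cells, 200 were lost (41.8%, 37.4 to 46.4%). When the lost share of all wt peaks was weighted to the folds of these 478, it was 13.9%. At EBF1 sites called with both forms, 380 of 3442 Brg1 peaks were lost (11.0%, 10.0 to 12.1%), beside 9.36% for all peaks of the same folds. At sites called with dC alone 8.40% were lost (7.37 to 9.52%), beside 12.6%, and at peaks with no EBF1 call 17.6% (17.1 to 18.1%), beside 18.0%. In the highest quartile of wt folds, 15.6% were lost at sites of EBF1 wt alone (10.2 to 22.3%), 1.29% at sites of both forms (0.813 to 1.95%) and 1.48% with no EBF1 call (1.15 to 1.87%). EBF1 was measured in another kind of cell and not with dPLD, so these are places where EBF1 can bind and not where the shortened protein bound.

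Counted from the EBF1 sites, Brg1 was called with wt and not dPLD at 211 of the 1436 sites of EBF1 wt alone and with dPLD and not wt at 25 of them, so that wt had 89.4% of the sites called in 1 library (84.8 to 93.0%). At the 4719 sites of both forms the counts were 390 and 102 (79.3%, 75.4 to 82.8%). At the 6454 sites of dC alone they were 253 and 248 (50.5%, 46.0 to 55.0%). Over all peaks, counted as peaks and not as sites, 4814 were lost and 3622 gained, so an even count is not the background. Gained Brg1 peaks overlapped EBF1 less often than kept dPLD peaks did. An EBF1 peak with wt was called at 2.37% of gained and 14.0% of kept ones, and with dC at 6.54% and 23.0%. Of dPLD peaks at sites of both forms 2.33% were gained (1.83 to 2.92%), beside 7.72% for all dPLD peaks of the same folds. At sites of wt alone 4.44% were gained, beside 14.4%, and at sites of dC alone 6.30%, beside 9.27%.

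**Figure D2:**
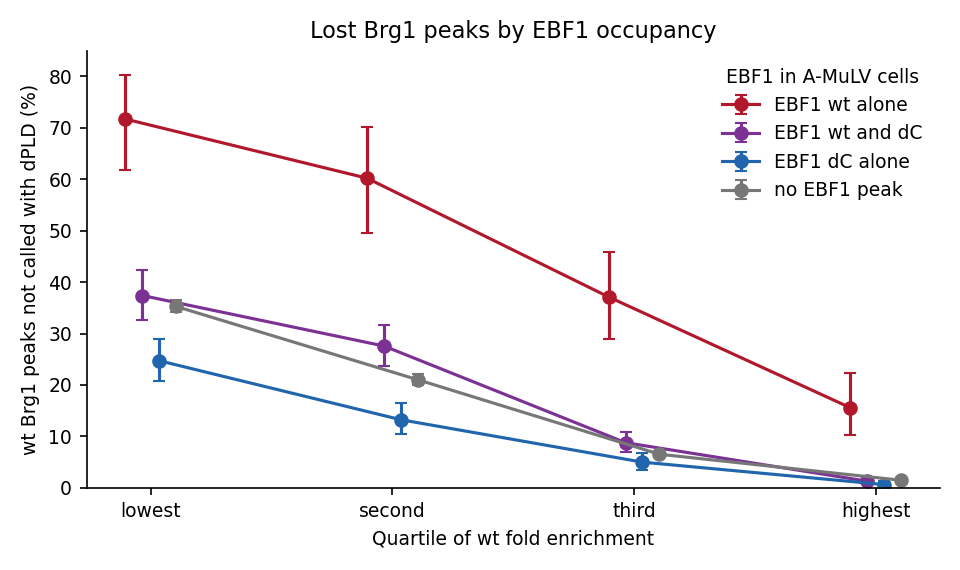
Share of wt Brg1 peaks lost with dPLD (percent) in each quartile of wt fold, by whether EBF1 was called there in A-MuLV cells with wt alone, with wt and dC, with dC alone or not at all; bars are exact 95% intervals for counting error. Sites of EBF1 wt alone have the highest share in each quartile, from 71.7% in the lowest to 15.6% in the highest.

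Peaks that wt cells shared with EBF1-deficient cells were seldom lost. Of the 10589 wt peaks also called with the empty vector, 5.07% were lost (4.66 to 5.51%), beside 11.4% for all peaks of the same folds. Of the 18765 not called with it, 22.8% were lost (22.2 to 23.4%), beside 19.2%. With summits matched within 200 bp the shares were 18.6% and 33.2%, and at EBF1 sites of both forms and of wt alone 21.6% and 47.9%. This split was not particular to the empty vector. Of wt peaks called with Brg1 wt in A-MuLV cells 6.37% were lost, beside 12.5% at the same folds. Of those not called there 26.3% were lost, beside 20.3%. For Brg1 with dC in A-MuLV cells the shares were 3.74%, beside 12.3%, and 29.6%, beside 20.7%. Gained peaks were split in the same direction by the empty-vector call, but their shares lay nearer those at the same folds. Of dPLD peaks called with the empty vector 6.99% were gained (6.51 to 7.49%), beside 8.41% at the same folds, and of those not called with it 17.0% (16.5 to 17.6%), beside 16.2%. Of all gained peaks, 20.6% (19.3 to 22.0%) were called with the empty vector, against 41.5% of kept dPLD peaks (40.9 to 42.2%), without matching for fold. The gap was smaller between weak peaks: 14.0% against 19.7% under a fold of 5 and 20.7% against 24.4% at 5 to 6. At a fold of 8 to 10 it was 34.3% against 53.1%. Of the 6840 empty-vector peaks without a wt peak, dPLD had 11.5% (10.7 to 12.2%), dC 20.9% (20.0 to 21.9%) and F-GATA3 6.01% (5.46 to 6.60%).

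The stronger a lost peak was with wt, the more often F-GATA3 had it and the less often dC did. Lost peaks with a wt fold under 5 were called with F-GATA3 at 28.2% (25.3 to 31.2%) and with dC at 36.3% (33.3 to 39.5%). At a fold of 8 to 10 the shares were 72.0% (66.3 to 77.2%) and 21.8% (17.1 to 27.2%). Of the 26 lost peaks with a fold of 12 or more, F-GATA3 had 25 and dC had 1. Among all 366 lost peaks with a fold of 8 or more, 234 were called with F-GATA3 alone of these 2 libraries, 23 with dC alone, 45 with both and 64 with neither. Kept wt peaks of those folds were called with dC at 96.4% and with F-GATA3 at 97.0%, and kept peaks under a fold of 5 at 88.0% and 63.1%. With the wt and dPLD lists held to a −log10 q of at least 20, 1491 peaks with a fold of 8 or more were lost. Of these dC had 61.7% and F-GATA3 83.3%. With summits matched within 200 bp, 1471 were lost, and the shares were 78.6% and 93.1%. In both settings dC and F-GATA3 calls still came from the full lists at 1 bp. Peaks lost there can overlap a weaker or shifted dPLD peak, so these shares cannot decide whether the low dC share depends on matching. A lost peak is by its definition called in the wt list and missing from the dPLD list, and the labels put dC at the stage of dPLD and F-GATA3 at that of wt.

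Gained peaks were called with dC more often than with F-GATA3. Of all 3622, dC had 70.3% (68.8 to 71.8%) and F-GATA3 22.7% (21.3 to 24.1%). Both shares were below those of kept dPLD peaks, 93.7% with dC and 85.5% with F-GATA3. The dC list was also the longer one, with 30301 peaks against 25072. With the wt and dPLD lists held to a −log10 q of at least 20 the shares of gained peaks were 98.1% and 74.4%. With summits matched within 200 bp they were 81.0% and 50.5%. Here too dC and F-GATA3 calls came from the full lists at 1 bp, so these shares are not like for like. Among the 78 gained peaks with a dPLD fold of 8 or more, dC had 76, F-GATA3 43 and the empty vector 26. Kept dPLD peaks of those folds were called with dC at 99.5% and with F-GATA3 at 97.2%, so the dC share was near theirs. The F-GATA3 share was 21.9% under a fold of 5 (19.3 to 24.7%) and 54.3% at 8 to 10 (41.9 to 66.3%), and the dC share 62.3% (59.1 to 65.4%) and 97.1% (90.1 to 99.7%), so both were higher at stronger gained peaks. The same held for kept dPLD peaks, which under a fold of 5 were called with F-GATA3 at 66.7% and dC at 81.6%. With dC alone of the pair dC and F-GATA3 there were 34 of the 78, with F-GATA3 alone 1. In A-MuLV cells Brg1 with wt was called at 19.3% of lost (18.2 to 20.4%) and 12.3% of gained peaks (11.3 to 13.4%), and Brg1 with dC at 11.7% (10.8 to 12.6%) and 19.2% (18.0 to 20.6%). Kept peaks were called there far more often. Brg1 with wt was called at 55.6% of kept wt and 56.2% of kept dPLD peaks, and Brg1 with dC at 58.9% and 59.5%.

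**Figure D3:**
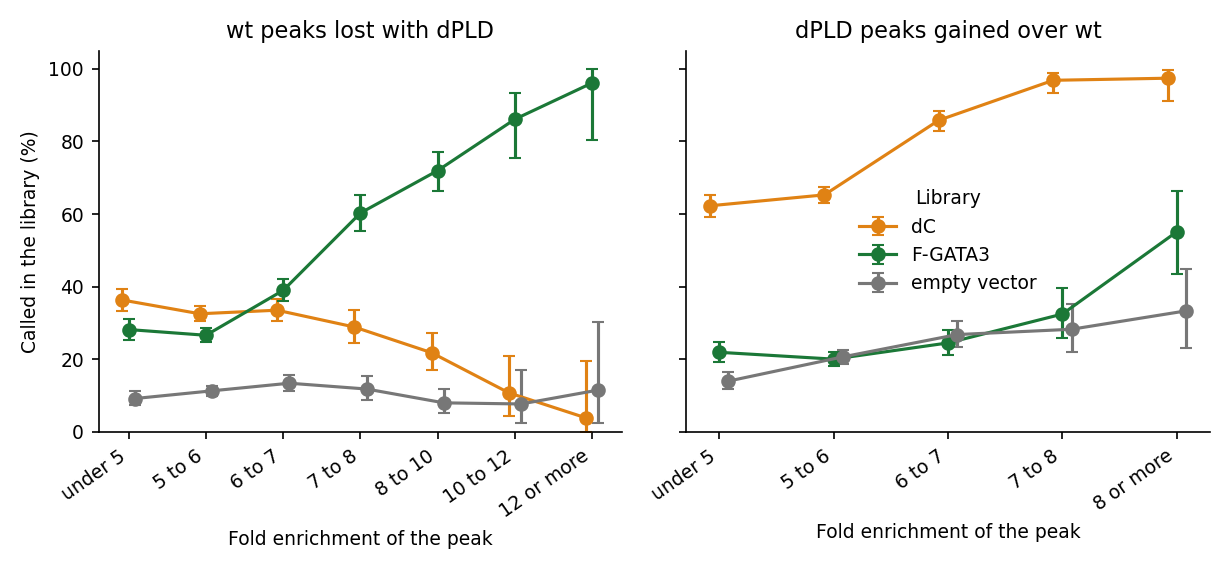
Share of lost wt peaks (left) and of gained dPLD peaks (right) that were also called with dC, F-GATA3 or the empty vector (percent), by the peak's fold enrichment; bars are exact 95% intervals for counting error. Among lost peaks the F-GATA3 share goes from 28.2% at folds under 5 to 25 of 26 peaks at 12 or more and the dC share from 36.3% to 1 of 26, while dC had 76 of 78 gained peaks of fold 8 or more.

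The strongest lost peak lay in Auts2 (chr5:131852864-131853926), which encodes a protein linked to chromatin and neuronal development, with a wt fold of 17.5 and no peak with dPLD, dC or the empty vector. F-GATA3 had a peak there of fold 5.34, and EBF1 was called in A-MuLV cells with a fold of 30.3 (wt) and 13.1 (dC). Other high lost peaks lay in Cntnap5c (16.5), Wwc1 (16.4), which encodes a Hippo-pathway scaffold, and Urb1 (16.0). They were followed by peaks nearest Sdk2 (15.3), Ostf1 (15.1), Slc44a1 (14.4), Steap3 (13.8) and Gria3 (13.6). All the peaks named here were called with F-GATA3 and none with dC, and that nearest Slc44a1 was the only one called with the empty vector. EBF1 with wt was called at those of Auts2, Ostf1 and Steap3, and of the 26 lost peaks with a fold of 12 or more, 12 had an EBF1 peak of either form.

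The strongest gained peak lay in Wnt5b (chr6:119535286-119536495), a secreted Wnt ligand, with a fold of 14.2 with dPLD, 14.0 with dC and 6.99 with F-GATA3 and no peak with wt or the empty vector. The next was nearest Krtap13 (13.5), a hair keratin-associated protein, followed by Prss12 (11.1), Rab11fip5 (10.5) and Cdk6 (10.4), a kinase that drives the G1 phase in blood progenitors. Aim2 (10.3), a sensor of cytosolic DNA, Chl1 (10.3), Mrtfb (10.1), Gnb4 (9.92) and Eif3a (9.66) complete the 10. All 10 were called with dC, 2 with the empty vector (Rab11fip5 and Aim2), and only that nearest Gnb4 had an EBF1 peak, of fold 8.88 with wt and 16.7 with dC.

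A gene is given a peak when the peak lies in its body extended by 10 kb. Of all 21887 protein-coding genes, 15.2% had a lost peak and 13.7% a gained one. All 30 B-lineage genes had a peak with wt and with dPLD. Of all 13758 protein-coding genes with a wt peak, 644 had none with dPLD. In the B-lineage list 15 genes had a lost and 7 a gained peak. These counts were 24 and 17 with summits matched within 200 bp, and 22 and 13 with gene bodies extended by 50 kb. Shares of all genes under those settings were not computed, so these last counts have no background to be read against. Of the 154 wt peaks near the B-lineage genes 19 were lost (12.3%, 7.59 to 18.6%), beside 13.0% for all wt peaks of the same folds. Of their 145 dPLD peaks 14 were gained (9.66%, 5.38 to 15.7%), beside 9.90%. Both shares are near those of other peaks of their strength. The highest peaks near some of them, named after their values were seen, were kept: that of Pou2af1, a B-cell coactivator, had a fold of 31.3 with wt and 25.5 with dPLD, and that of Pax5, the commitment factor, 24.8 and 15.5. Cd79a and Cd79b, which encode the signalling chains of the B-cell receptor, and Cd22 had no lost peak.

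Ebf1 itself had 13 peaks with each version, of which 2 were lost and 2 gained. The higher of the lost ones (chr11:44765028-44765653) had a wt fold of 10.5, the highest of any lost peak near a B-lineage gene, and was called with F-GATA3 and not with dC. The higher of the gained ones had a dPLD fold of 7.80. Lost peaks followed near Pax5 (6.77), Bach2 (6.73), a transcriptional repressor, and Bst1 (6.55), a surface enzyme of bone marrow B cells. Igll1 and Vpreb1, which lie next to each other and encode the surrogate light chain, share 2 lost peaks (6.19 and 5.00). Bach2 had 8 peaks with wt and 12 with dPLD, with 6 gained (highest 6.25), and 5 of these 6 were called with dC. Gained peaks also lay near Irf8 (5.61) and Foxo1 (5.38), both factors of early B cells. Smarca4 had 5 peaks with each version and none lost or gained, and Gata3 had no peak with either.

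The 14 genes of pre-B receptor signalling had 7 of 91 wt peaks lost (7.69%, 3.15 to 15.2%), beside 12.7% at the same folds, and 11 of 92 dPLD peaks gained (12.0%, 6.12 to 20.4%), beside 9.98%. The lost ones were weak, with the highest near Vav1 (5.69), Rasgrp3 (5.64), Fyn (5.33) and Pik3ap1 (5.16), adaptors and enzymes downstream of the receptor. Lyn, a kinase of the receptor, had 6 wt and 9 dPLD peaks, none lost and 4 gained, with a highest gained fold of 5.50 and all 4 called with dC. Other gained peaks lay near Pik3ap1 (5.59), Fyn (5.21) and Plcg2 (5.16).

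E proteins are the partners of EBF1 in B-cell specification, and Id proteins are their inhibitors. Near the 6 genes, 11 of 37 wt peaks were lost (29.7%, 15.9 to 47.0%), beside 19.05% for all wt peaks of the same folds, a share that lies inside the interval. Tcf12 had 10 peaks with wt and 6 with dPLD, with 4 lost (highest 7.28). Tcf3, which encodes E2A, had 7 and 4, with 3 lost (highest 7.28), and Tcf4 had 13 and 11, with 3 lost (6.55) and 1 gained (6.00). EBF1 with wt was called at 1 lost peak of Tcf3 (chr10:80423449-80424159) and 1 of Tcf12 (chr9:71993560-71994888), and both were called with F-GATA3 and not with dC. The Id genes differed among themselves: Id1 had 1 wt and 4 dPLD peaks, with 3 gained (highest 5.40), Id3 had 1 gained (5.99) and Id2 had 1 lost (5.92).

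**Figure D4:**
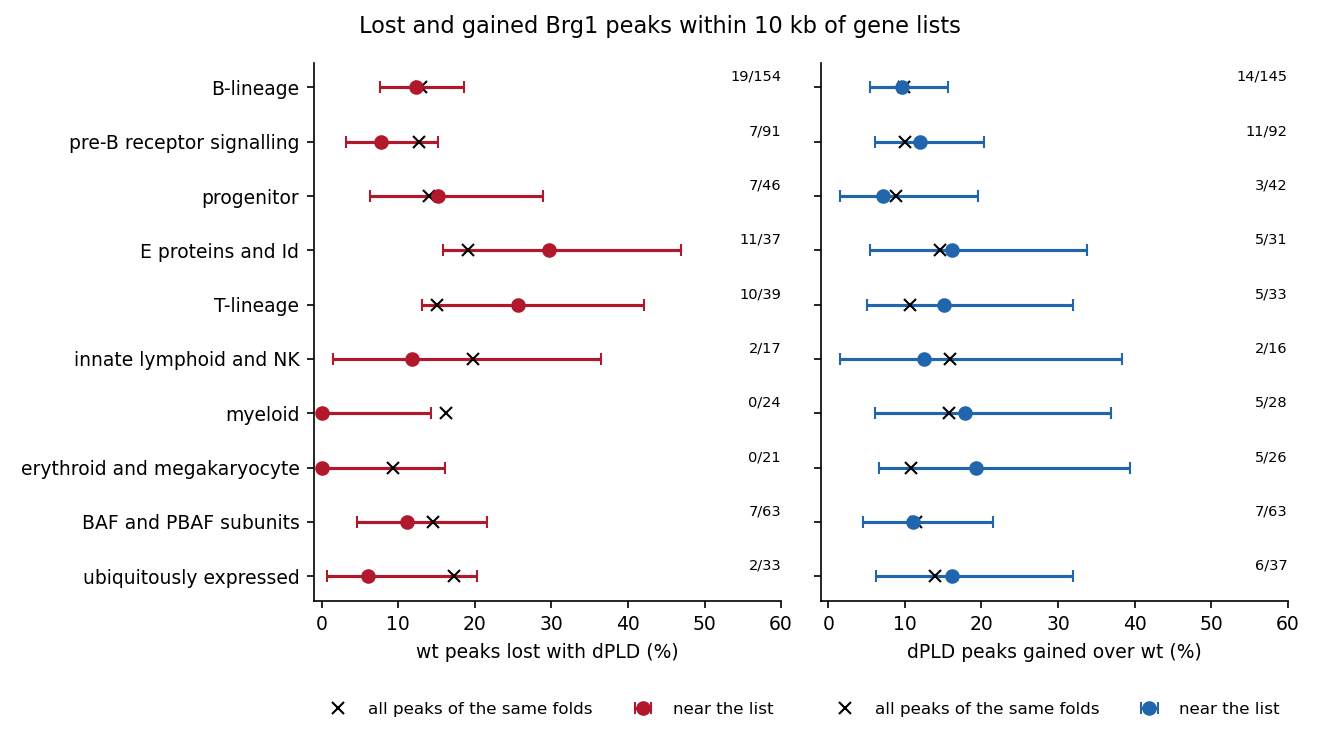
Share of wt peaks lost (left) and of dPLD peaks gained (right) within 10 kb of the genes of 10 lists (percent), with exact 95% intervals for counting error; crosses give the share for all peaks of the same folds, and the figures at the right the peaks lost or gained over all peaks near the list. B-lineage genes sit at 12.3% lost beside 13.0%, E-protein and Id genes at 29.7% beside 19.05%.

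Peaks near T-lineage genes split between lost and gained. Many of these genes, though not all, are off or low in normal B cells, and some are used in progenitors. Of 39 wt peaks near the 16 genes 10 were lost (25.6%, 13.0 to 42.1%), beside 15.0% at the same folds, and of 33 dPLD peaks 5 were gained (15.2%, 5.11 to 31.9%), beside 10.6%. Thy1, a surface marker of T cells, had 3 wt peaks (highest 9.64), all lost and all called with the empty vector, and no dPLD peak. Cd5 had 5 wt and 2 dPLD peaks with 3 lost (highest 8.34), and all 3 were called with F-GATA3. Il2ra had 3 lost (6.15) and 1 gained (5.02), and Tcf7 had 1 lost (5.46). Lck had 3 wt and 5 dPLD peaks, with 2 gained (7.23 and 6.38) that were both called with dC and the empty vector. Notch1 (5.61) and Notch3 (5.17) had 1 gained peak each.

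Progenitor genes had 7 of 46 wt peaks lost (15.2%, 6.34 to 28.9%), beside 14.1% at the same folds, and 3 of 42 dPLD peaks gained (7.14%, 1.50 to 19.5%), beside 8.88%. Meis1, a homeobox factor of stem cells, had 4 peaks with wt and 1 with dPLD, with 3 lost (highest 7.26). Gata2 had 1 peak, which was lost (6.73), and single peaks were lost near Flt3 (6.37), a cytokine receptor of lymphoid progenitors, and Erg (5.73). Gained peaks lay near Kit (8.15), the receptor used to sort the progenitors, Tal1 (6.65) and Ly6a (4.81), and all 3 were called with dC.

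The myeloid and the erythroid and megakaryocyte markers had no lost peak and a few gained ones. The myeloid list had 0 of 24 wt peaks lost (0 to 14.2%), beside 16.3% at the same folds, and 5 of 28 dPLD peaks gained (17.9%, 6.06 to 36.9%), beside 15.8%. The gained ones were weak, near Cebpb (5.28), Spi1 (4.86), which encodes PU.1, Csf2ra (4.81) and Cebpe (4.44), with the fifth near Fcgr3 (4.34). The erythroid and megakaryocyte list had 0 of 21 lost (0 to 16.1%), beside 9.28%, and 5 of 26 gained (19.2%, 6.55 to 39.4%), beside 10.7%. Among these were peaks near Hbb-bt and Hbb-bs, neighbouring globin genes that share the peak (6.76), Itga2b (6.08), Klf1 (4.80) and Nfe2 (4.29). Innate lymphoid and NK genes had 2 of 17 lost (11.8%, 1.46 to 36.4%), beside 19.7% at the same folds, near Id2 and Rora (5.64). They had 2 of 16 gained (12.5%, 1.55 to 38.3%), beside 15.9%, near Klrd1 (5.89) and Nfil3 (4.85). Of the 11 markers of stroma, the cells on which the progenitors grew, 2 had any peak with wt and 2 with dPLD (Col1a1 and Acta2), with a gained peak near Acta2 (4.85). Col1a2, Col3a1, Pdgfra, Pdgfrb and Cxcl12, all markers of such cells, had none.

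The 16 subunit genes of BAF and PBAF had 7 of 63 wt peaks lost and 7 of 63 dPLD peaks gained (11.1% each, 4.59 to 21.6%), beside 14.5% and 11.4% at the same folds. Arid1b, a large subunit of BAF, had 6 of the 7 lost (highest 8.41) and 5 of the 7 gained (7.33), and the other lost peak lay near Smarca2 (5.28), the alternative ATPase. The remaining gained peaks lay near Pbrm1 (6.38) and Smarca2 (5.75). Ubiquitously expressed genes had 2 of 33 lost (6.06%, 0.743 to 20.2%), beside 17.3% at the same folds, near Ppia (5.46) and Actb (4.35). They had 6 of 37 gained (16.2%, 6.19 to 32.0%), beside 13.9%, with the highest near Polr2a (6.53), Rplp0 (6.00), B2m (5.84) and Eef1a1 (5.24).

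The genes with the highest counts of lost or gained peaks were as follows, and no share was set against gene length. Inpp4b, a lipid phosphatase gene of 792 kb, had 8 of its 14 wt peaks lost and none gained. Asic2 had 7 of 10 wt peaks lost, Zmat4 7 of 11, Sipa1l1 7 of 12, Nav2 7 of 15 and Snx29 7 of 24. Plcl1 had 6 of 10 lost, Mgat5 and Tenm4 6 of 13 each and Arid1b 6 of 21, and 5 genes shared this count of 6. Over all wt peaks 16.4% were lost, and these genes were picked by their counts. The gene with the highest count of gained peaks was Hivep3, a zinc-finger gene of 404 kb, with 14 wt and 22 dPLD peaks, 3 lost and 11 gained. Bach2 and Cux1 had 6 of 12 dPLD peaks gained each, Ankrd11 6 of 13 and Iqsec1 6 of 14. Alpk2 had 5 of 7 gained, Chd7 5 of 9, Cdkl3 5 of 10, Arid1b 5 of 19 and Foxp1 5 of 29. The count of 5 was shared by 10 genes, and over all dPLD peaks 13.1% were gained. Of the 4558 genes with 3 or more wt peaks, 17 had no dPLD peak. Among these, named after their values were seen, Gm8369 and Eps8 had 5 wt peaks and Auts2, Cacng3 and Adamts7 had 4. Btla, an inhibitory receptor of lymphocytes, Il33, a cytokine, and Thy1 had 3. The reverse held for 3 genes, Pald1, Cenph and Atp8b4, each with 3 dPLD peaks and none with wt.

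The immunoglobulin kappa locus lost the most peaks of any single region described here. Igk (chr6:67555636-70726754) encodes the kappa light chain, which recombines after the pro-B stage. It had 141 peaks with wt and 69 with dPLD, with 73 lost (51.8%, 43.2 to 60.3%) and 2 gained, beside a lost share of 13.3% for all wt peaks of the same folds. Lost peaks had a median fold of 6.19 and reached 16.2, at a peak that lies on the V segment at the left edge of the locus. Of the 73 lost peaks F-GATA3 had 36, and neither dC nor the empty vector had any. Brg1 in A-MuLV cells was called at 38 of the 73 with wt and at 1 with dC, and EBF1 with wt at 21, of which 19 were sites of EBF1 wt alone. Leaving the locus out, the lost share at sites of EBF1 wt alone was 41.1% (36.5 to 45.9%).

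Within 500 bp of the 102 V segments of Igk that RefSeq does not mark as pseudogenes, Brg1 was called at 65 with wt, 30 with dPLD, 47 with F-GATA3 and 15 with dC. At 35 segments it was called with wt and not dPLD, and at none the reverse. Losses lay along the whole V region, with 8 to 17 lost peaks in each 500 kb step from the left edge to 3000 kb. In the last stretch, from there to the right edge at 3171 kb, 2 of 12 wt peaks were lost. The strongest peak of the locus (chr6:70039680-70042310) was kept, with a fold of 30.8 with wt, 20.7 with dPLD and 22.1 with F-GATA3.

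**Figure D5:**
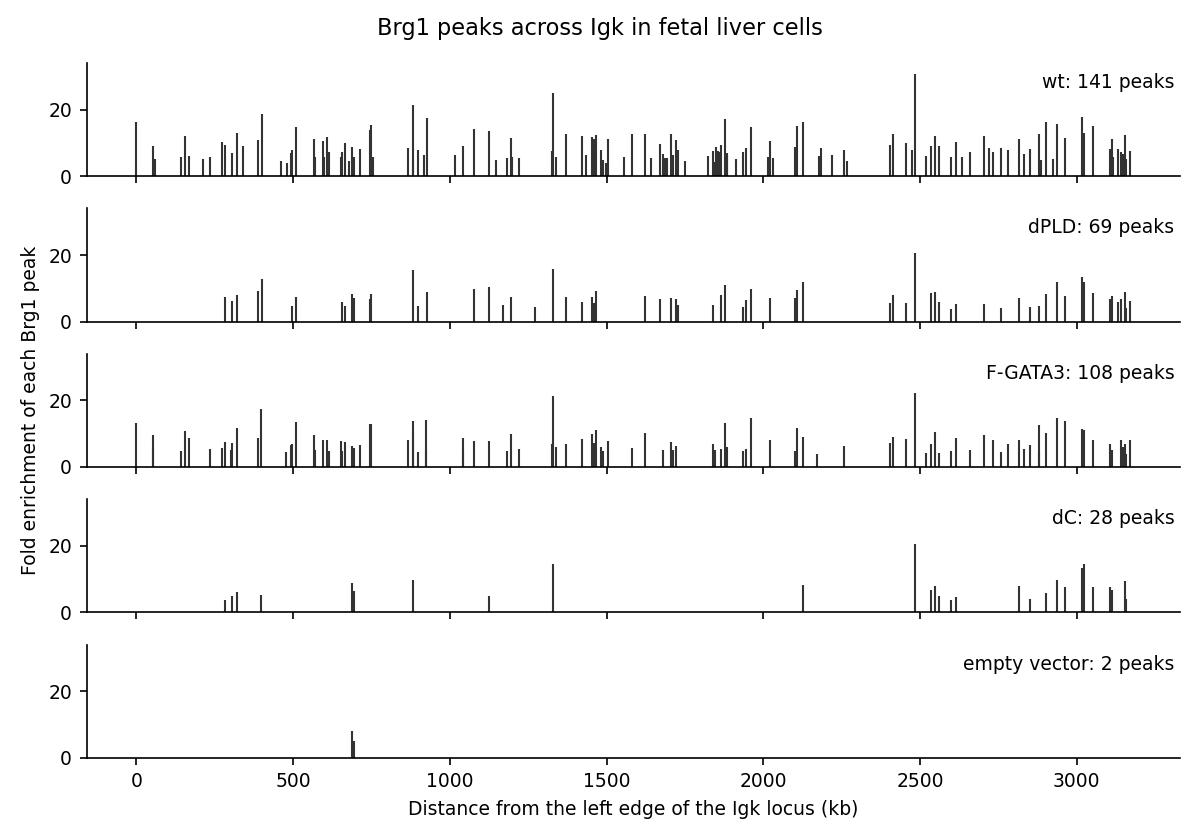
Brg1 peaks across Igk in the 5 fetal liver libraries; each line is a peak at its summit, in kb from the left edge of the locus, with its fold enrichment in its own list as the height. The wt panel holds 141 peaks and the dPLD panel 69, F-GATA3 108, dC 28 and the empty vector 2, and the peaks missing with dPLD are spread along the locus.

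The other immunoglobulin loci did not lose peaks in this way. Igh, the heavy chain locus, which recombines first, had 111 peaks with wt, of which 9 were lost (8.11%, 3.77 to 14.8%), beside 16.5% at the same folds. With dPLD it had 124 peaks, of which 24 were gained, beside 13.1% of all dPLD peaks. No gained share at the same folds was set beside this count. Of the 121 V segments of Igh not marked as pseudogenes, 41 had Brg1 within 500 bp in the wt list and 46 in the dPLD list. The empty-vector list had 38. Igl, the lambda locus, had 12 peaks with each version, with 1 lost and 1 gained.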

How the data were processed

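Each of the 9 ChIP-seq libraries had 1 deposited peak list in narrowPeak format, and signal tracks and inputs were not used here. Per the submitters' processing notes, MACS2 2.1.2, Bowtie2 2.3.3.1, deepTools 3.3.1 and SAMtools 1.9 were used, with the builds GRCm38 and mm10. Not given in the sources used here are the threshold, the treatment of duplicate reads and which control each library was set against. The authors' fold enrichment is a ratio of summit pileup to local background. Significance was deposited as −log10 p and −log10 q at the summit. The deposited score equals 10 times −log10 q without its decimals. Column meanings follow the narrowPeak format and were checked on the values. The lowest −log10 q was 10.0 in the wt and dPLD lists. Peaks on unplaced scaffolds were left out (7 with wt, 8 with dPLD).

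Peaks sharing at least 1 bp were counted as overlapping, with code checked against bedtools 2.31.1 and tested on simulated intervals. Lost and gained shares carry exact Clopper-Pearson 95% intervals (scipy 1.17.1). Shares "at the same folds" weight the lost or gained share of each decile of fold to the folds of the class. Genes are the 21887 protein-coding intervals of RefSeq GRCm38.p6, and promoter sequences are from the same build. The members and gene lists were chosen with earlier results of these data known. Genes named are the 10 highest lost and 10 highest gained peaks, 1 per nearest gene, up to 4 members per list and class by fold, the 10 genes with the most lost and with the most gained peaks, Ebf1, Gata3, Smarca4 and the immunoglobulin loci. Other genes were chosen after their values were seen, and a few genes that the rule covers are not reported here. Alternatives tried were a minimum −log10 q of 20, lists of equal length, an overlap of 50%, summits within 200 bp, gaps of up to 1 kb, stronger peaks alone and a gene window of 50 kb.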

Additional observations from a re-analysis of the deposited data

How the results depend on the processing

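Overlap by 50% of the shorter peak left each result computed with it within its interval or within 1.5 times its count. The ratio of dPLD to wt peaks in Igk uses no overlap, so it was recomputed only with the higher −log10 q and the equal lists. Over all settings 42 of 77 recomputed values did so and 35 did not. With both lists held to a −log10 q of at least 20, which drops weak matches from the other list as well, 19.8% of wt peaks were lost, 2208 dPLD peaks were gained, and the lost share was 29.0% without and 9.11% with an empty-vector call and 15.6% at EBF1 sites of both forms. In that setting F-GATA3 had 83.3% and dC 61.7% of lost peaks with a fold of 8 or more, beside 76.2% and 18.6% as reported. Of gained peaks dC had 98.1% and F-GATA3 74.4%, beside 70.3% and 22.7%. The dC and F-GATA3 lists were not held to that limit, so these shares are not like for like. With both lists cut to 27550 peaks, which shortens the wt list alone, 14.0% were lost and 15.8% gained, so that the larger share was the gained one. The lost share was then 19.9% without and 4.07% with an empty-vector call, and dC had 72.1% and F-GATA3 25.9% of gained peaks. Matching by summits within 200 bp gave 8196 lost (27.9%) and 6392 gained peaks (23.2%), lost shares of 33.2% and 18.6% without and with an empty-vector call, 21.6% and 47.9% at EBF1 sites of both forms and of wt alone, and 24 and 17 B-lineage genes with a lost and a gained peak. Under it F-GATA3 had 93.1% and dC 78.6% of lost peaks with a fold of 8 or more, and dC had 81.0% and F-GATA3 50.5% of gained peaks. Joining peaks up to 1 kb apart gave 15.1% lost, 11.7% gained and 21.0% lost without an empty-vector call. Of peaks at or above the median fold of their list, 4.41% were lost and 2.21% gained. A 50 kb gene window gave 13 B-lineage genes with a gained peak in place of 7. No share of all genes was computed in any of these settings, so the counts of B-lineage genes have no background there. The higher lost share at sites of EBF1 wt alone than of both forms held under each of the 5 matching and threshold settings, and so did the higher share without than with an empty-vector call.

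Alternatives changed the match between wt and dPLD, while calls in other libraries stayed at 1 bp with their full lists. The changed shares called with dC and F-GATA3 therefore cannot decide whether the reported ones depend on the matching. The 4 results on dC and F-GATA3 calls, and the setting without Igk, were added after seeing the data. No paired analysis was possible because each group had 1 library, and for the same reason no library was left out in turn. Depth is unknown.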
